A study of Populus tremula x Populus alba with 24 samples.

Results

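The early dip genes are 175 genes of poplar roots whose transcripts were low 15 min after treatment with lipochitooligosaccharides (LCO) and back near the control level at 8 h and 24 h. They were chosen among 42950 genes in the table, of which 25636 had a mean of at least 1 TPM, a relative abundance corrected for transcript length and scaled to a fixed total per library. Levels were taken as log2(TPM + 1), and d is the mean of a time group minus that of the control on this scale. An early dip gene had a mean of at least 1 TPM, d of -0.8 or lower at 15 min, all 3 libraries of 15 min below the lowest control library, and d between -0.5 and 0.5 at both 8 h and 24 h. The 15 min part of this rule held for 880 genes, so the early dip genes were 19.9% of them. Of the 25636 genes, 10823 lay within the late limits at any 15 min level. The other 705 of the 880 genes lay outside the late limits at 8 h, 24 h or both. They are called genes with the same fall because they met the same 15 min limits. Their fall was larger, with a median d of -1.11 at 15 min, against -0.92 for the early dip genes. The levels at 15 min, 8 h and 24 h chose the genes and are given as a description. All 175 passed the filter on low values, which is part of the rule.

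LCO are signal molecules that rhizobia and many mycorrhizal fungi release towards plant roots. Plants perceive them through receptor kinases with LysM domains at the cell surface, and a signalling pathway shared by both symbioses leads through calcium oscillations in the nucleus to changes in transcription. The level of a transcript is set by synthesis and by decay, and abundance measurements such as these do not separate the contributions.

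Roots came from plantlets of 1 clone (717-1B4) of the hybrid poplar Populus tremula x alba, rooted in vitro. All groups were then kept for 10 days on plates low in nutrients, with nitrogen at 0.5 mM and phosphate at 7 μM. Per the labels, roots were flooded for 1 h, starting 3 h after dawn, with 10 nM LCO of Rhizobium sp. IRBG74. The labels give 0.005% ethanol as the control solution. The 22 libraries used here each pool roots of 4 plants: 3 of the control at time 0, 2 each of LCO-treated roots at 30 min and 2 h, and 3 each at 15 min, 1 h, 4 h, 8 h and 24 h. The labels do not state plainly whether control roots were flooded or whether the times count from the end of the flooding. With controls at time 0 only, LCO, the time since flooding and, other than at 24 h, the time of day cannot be told apart. No table that pairs the Potri identifiers with gene names or functions was used here, so the genes go by identifier, no role is given to any of them, and the label of root tissue was not set against marker genes. In pooled roots, fewer cells of a type and less RNA per cell cannot be told apart.

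The read depth behind the values is unknown. Between 9029 genes (24 h, replicate 1) and 13313 genes (30 min, replicate 3) were listed at 0 in a library. Of the early dip genes, 11 were at 0 in 30 min replicate 3, 9 in 15 min replicate 2, 5 in 1 h replicate 3 and at most 3 in any other library. Within 15 min, replicate 2 stood apart with 12139 genes at 0, against 9241 and 9265 in replicates 1 and 3. Replicate 2 of 15 min bears on which genes count as early dip genes: 420 genes met the rule without this library, 143 of them among the 175, while leaving out any other single library of the control, 15 min, 8 h or 24 h gave 147 to 220.

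At 15 min the early dip genes stood at a median of 0.465 of their control TPM (ratio of group means), with a range from 0.168 to 0.601. On the log2 scale the median d was -0.92, with quartiles at -1.05 and -0.85. For 55 genes d was -1 or lower, and for the other 120 it lay between -1 and the limit of the rule. In limma, 111 of the 175 were called lower at 15 min, where 3.73% of all genes tested were; this contrast chose the genes, and nothing is read from the count. The gap between the lowest control library and the highest 15 min library had a median of 0.40 log2 and ran from 0.01 to 1.24. Replicate 1 was the lowest of the 3 libraries for 87 genes, replicate 2 for 51 and replicate 3 for 37. Among the control libraries, replicate 1 was the highest for 105 genes.

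The early dip genes spanned rare to abundant transcripts. The median of their mean levels was 7.09 TPM, against 8.81 TPM over all genes tested and 8.71 TPM over the 705 genes with the same fall at 15 min. Of the 175, 63 had a mean under 5 TPM, 13 had at least 50 TPM and 8 had at least 100 TPM, and 18 were listed at 0 in at least 1 library. The limits of the rule run through a continuous range. Inside the limit at 15 min, 46 genes lay within 0.05, and another 46 that met the rest of the rule lay within 0.05 outside it. The pair of genes just inside had d of -0.8042 and -0.8038, and the pair just outside had -0.7996 and -0.7966. At 8 h or 24 h, 24 early dip genes came within 0.05 of a late limit.

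Potri.006G276500 had the lowest d at 15 min (-1.93) among the early dip genes. It was listed at 21.7, 42.0 and 23.8 TPM in the controls and at 1.62, 13.5 and 10.5 TPM at 15 min. Its level then went up and down: it stood at 24.5 and 17.8 TPM at 30 min, at 12.5, 6.30 and 11.4 TPM at 1 h and at 58.1, 37.0 and 24.2 TPM at 4 h. The 3 libraries of 1 h were all below those of 30 min and of 4 h. At 2 h its d was -0.47. Whether its level differed between 30 min and 1 h was not tested. Its level at 4 h did not differ detectably from that at 30 min (0.81 log2, SE 0.57, limma, adjusted p = 0.389). The rise from 1 h to 4 h was 1.84 log2 (SE 0.51, limma, adjusted p = 0.0255). In all, 4 of 13 alternatives lost this call. Among them were leaving out 1 h replicate 2 (adjusted p = 0.107), 4 h replicate 1 (0.112) or 4 h replicate 2 (0.0768). Potri.001G452500 came next, with 19.7, 9.32 and 14.3 TPM in the controls and 3.37, 3.21 and 2.44 TPM at 15 min (d of -1.90). At 30 min its libraries disagreed, with 4.94 and 21.5 TPM, and at 4 h they were close together and above every control, at 24.3, 25.9 and 26.0 TPM. It rose by 1.52 log2 from 1 h to 4 h (SE 0.47, adjusted p = 0.0448), a difference of 0.84 (adjusted p = 0.217) without 1 h replicate 3, which held 2.54 TPM. The call was also lost without 4 h replicate 1, 2 or 3 (adjusted p = 0.0953, 0.12 and 0.107), and in all in 9 of 13 alternatives, with an adjusted p of up to 0.217. From 30 min to 4 h Potri.001G452500 was not called (1.19 log2, SE 0.53, limma, adjusted p = 0.1585).

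The most abundant early dip gene was Potri.008G203400, singled out after its values were seen. It held 988, 721 and 868 TPM in the controls and 329, 563 and 494 TPM at 15 min. The rule required these groups not to overlap, and the highest 15 min library reached 563 TPM. From 30 min on its group means lay between 682 and 860 TPM, and its level at 4 h did not differ detectably from that at 30 min (0.08 log2, SE 0.27, limma, adjusted p = 0.876).

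**Figure D1:**
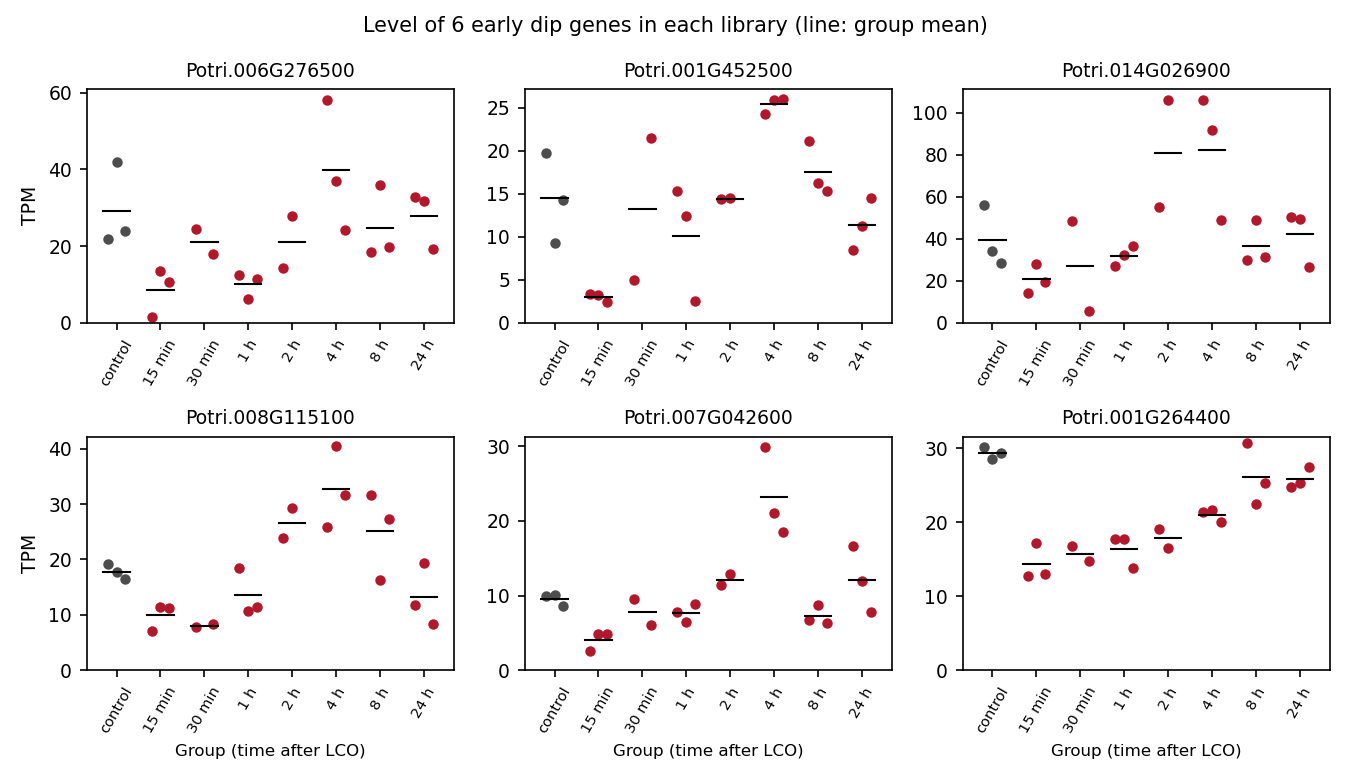
TPM of 6 early dip genes (vertical axis) in each library by group (horizontal axis), with a line at the group mean. Potri.001G264400 has a mean of 14.3 TPM at 15 min and of 26.2 TPM at 8 h, below its control mean at both, whereas Potri.007G042600 stands at 23.1 TPM at 4 h, above every control library.

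The libraries of 30 min, 1 h, 2 h and 4 h entered the rule only through the mean over all libraries. Differences among the means of these times therefore do not use the levels that chose the genes. The spread in the limma fit is still shared with the libraries that chose them. Among these times the median level rose. The medians below are set against controls that the rule required to be high, and are compared only with each other. Relative to the control mean, the median level of the 175 genes was -0.47 and -0.65 log2 in the libraries of 30 min, -0.30, -0.50 and -0.48 in those of 1 h, -0.29 and -0.02 in those of 2 h, and 0.01, -0.03 and 0.00 in those of 4 h. Each 4 h library stood above each library of 30 min and 1 h in this median. The median over all genes tested stayed between -0.04 and 0.05 in the same libraries.

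**Figure D2:**
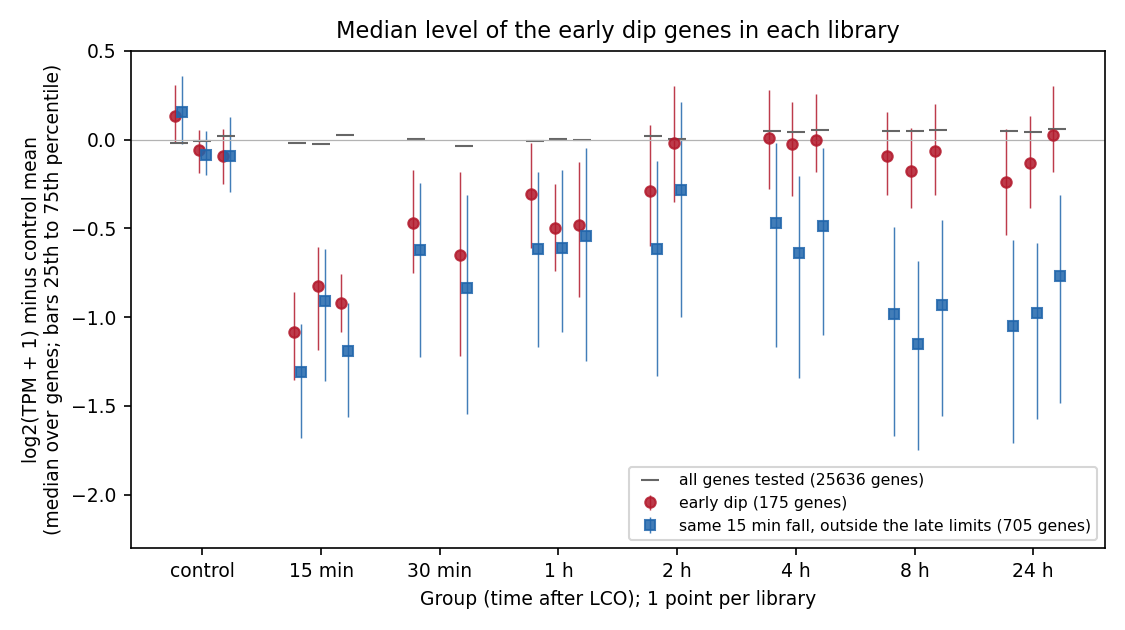
Median over genes of log2(TPM + 1) minus the control mean (vertical axis) in each library by group (horizontal axis), with bars from the 25th to the 75th percentile over genes. The early dip genes go from -1.08, -0.83 and -0.92 in the 15 min libraries to between -0.03 and 0.01 at 4 h. The 705 genes with the same fall, outside the late limits, were at -1.31, -0.91 and -1.19 in the 15 min libraries. At 4 h they were between -0.64 and -0.47. The rule split the sets by late level, so nothing is read from the difference between them.

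From 30 min to 4 h the early dip genes had a median difference of 0.59 log2, and 156 of 175 (89.1%) were higher at 4 h. Over all genes tested the median was 0.07 and 55.9% were higher. Set against 30 min replicate 1 alone the median was 0.48, and against replicate 3 alone 0.65, with 147 genes higher at 4 h in each case. All libraries of 4 h lay above both libraries of 30 min for 96 early dip genes (54.9%), where 24.2% of all genes tested did so, and below them for 3, where 17% of all genes did.

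In the limma fit over all genes, 35 early dip genes (20.0%) were higher at 4 h than at 30 min at an adjusted p under 0.05, against 5.68% of all genes tested. None was lower, against 5.36%; without the adjustment, 86 early dip genes passed 0.05 as higher (15.3% of all genes did) and 0 as lower (11.1%). Of the 705 genes with the same fall at 15 min, 7.80% were higher and 5.67% lower, with a median difference of 0.16. The rule split these genes from the early dip genes by late level, which bears on any rise up to 4 h. Whether the sets differ was not tested. Of the 10648 other genes within the late limits, 3.73% were higher and 2.59% lower, with a median of 0.05. The number of early dip genes called rests on the 30 min libraries: it was 5 without replicate 3, which also has the most genes at 0, and 54 without replicate 1. It was 18, 19 and 18 without 4 h replicates 1, 2 and 3, 23 with the number of genes at 0 as a covariate, and 7 with only the libraries of 30 min and 4 h in the fit.

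**Figure D3:**
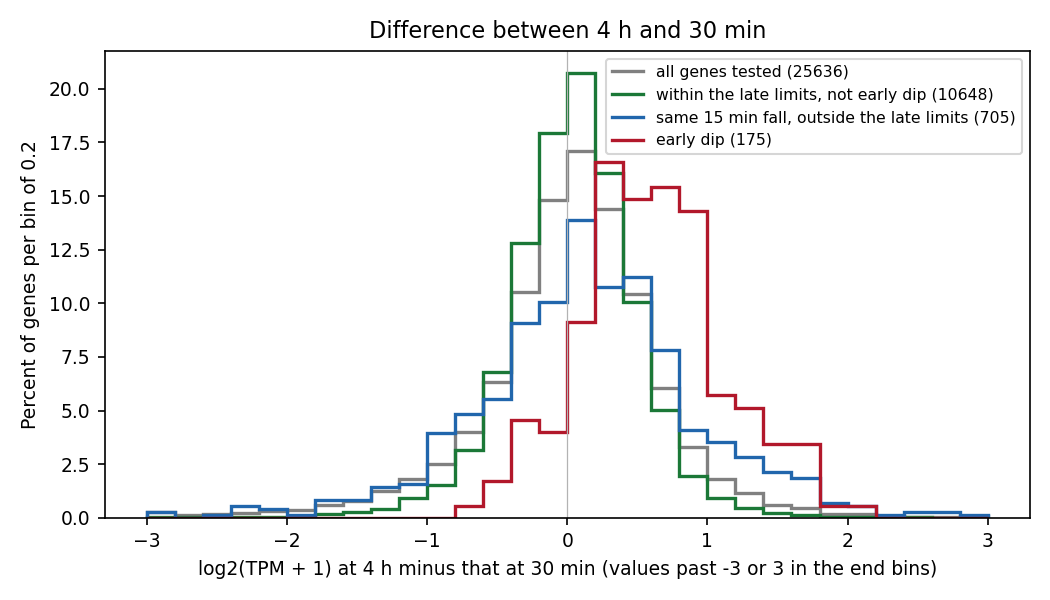
Distribution of the difference in log2(TPM + 1) between 4 h and 30 min (horizontal axis), as percent of the genes of each set per bin of 0.2 (vertical axis). The early dip genes are shifted to the right, with a median of 0.59, against 0.16 for the genes with the same fall, 0.05 for other genes within the late limits and 0.07 for all genes tested. The genes with the same fall were split off by late level, and whether the sets differ was not tested.

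Potri.014G026900 had the highest difference between 4 h and 30 min, 2.15 log2 (SE 0.60, adjusted p = 0.0266). It was listed at 48.7 and 5.40 TPM at 30 min and at 106, 91.7 and 48.7 TPM at 4 h, against 56.2, 34.2 and 28.4 TPM in the controls. The low library is 30 min replicate 3, and without it the difference was 0.67 (adjusted p = 0.581); leaving out 4 h replicate 1 or 2 also ended the call (adjusted p = 0.0821 and 0.0831). In all, 8 of 12 alternatives lost it, and adjusted p ran from 0.000241 to 0.581. Potri.008G115100 came next, and its libraries were close together: 7.78 and 8.33 TPM at 30 min, and 25.9, 40.5 and 31.6 TPM at 4 h, for a rise of 1.87 log2 (SE 0.32, adjusted p = 0.00094). This call held in all 12 alternatives tried (adjusted p between 0.00108 and 0.0268). Its controls were at 19.2, 17.7 and 16.5 TPM, so that all 4 h libraries lay above and both 30 min libraries below the controls.

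From 1 h to 4 h, with 3 libraries each, the median difference was 0.44 log2, and 155 of 175 genes were higher at 4 h. At an adjusted p under 0.05, 29 genes (16.6%) were higher, against 5.48% of all genes tested, and none was lower, against 5.96%; at an unadjusted p under 0.05 these numbers were 68 and 1, against 14% and 11.5% of all genes. Of the 705 genes with the same early fall, 4.96% were higher and 7.38% lower, with a median of 0.00. Here too the sets had been split by late level, and whether they differ was not tested. All libraries of 4 h lay above all libraries of 1 h for 70 early dip genes (18.6% of all genes tested) and below them for 2 (14.1% of all genes). Omitting replicate 2 or 3 of 1 h left 14 or 17 calls, and omitting 4 h replicates 1, 2 and 3 in turn left 15, 12 and 15. Of the early dip genes, 18 were called higher at 4 h against both 30 min and 1 h, where 2.95% of all genes tested were.

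From 30 min to 2 h, with 2 libraries each, the median was 0.39 log2, 139 genes were higher, and 10 genes were called higher (5.71%, against 1.55% of all genes) and none lower (1.94% of all genes); 44 and 5 passed an unadjusted p of 0.05, against 9.68% and 8.59% of all genes. Of the 705 genes with the same fall, 3.97% were called higher and 1.84% lower, with a median difference of 0.26; whether the sets differ was not tested. Both libraries of 2 h lay above both of 30 min for 74 genes, where 21.3% of all genes tested did so, and below them for 14, where 18.8% did. Potri.001G463200, singled out after its values were seen, went from 2.12 and 1.63 TPM at 30 min to 7.83 and 9.90 TPM at 2 h, a rise of 1.78 log2 (SE 0.30, adjusted p = 0.0032). This call was lost in 2 of 11 alternatives, with only the libraries of 30 min and 2 h in the fit (adjusted p = 0.29) and with library weights (0.104). Its 15 min libraries, at 2.24, 2.79 and 1.73 TPM, were as low as those of 30 min. The count of 10 became 3 without 30 min replicate 3, 35 without 30 min replicate 1, and 3 and 1 without 2 h replicates 1 and 2. It was 0 with only the libraries of the compared groups and 0 with library weights (29 and 24 at an unadjusted p under 0.05). In the F test for any difference among the 4 times, 30 early dip genes were called (17.1%), against 11.1% of all genes tested and 14.6% of the 705 genes with the same fall; the number was 54 without 30 min replicate 1 and 15, 14 and 14 without 4 h replicates 1, 2 and 3.

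The time of return was described by group means. A gene was taken to be back from the first time after which d stayed above -0.5. This was so from 30 min on for 56 genes, from 1 h for 39, from 2 h for 38 and from 4 h for 31. The other 11 were still below -0.5 at 4 h and were within the limits from 8 h on. These classes are a description, since they use the control libraries that the rule required to be high. Whether genes differ in their time of return was not tested, and the median SD within a group was 0.22 to 0.35 log2 at these times. At 30 min, 33 genes had a lower d than at 15 min, and at 1 h 17 genes did. At 8 h and 24 h, where the rule held d between -0.5 and 0.5, the medians were -0.11 and -0.09, and 110 genes were below 0 at each time.

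**Figure D4:**
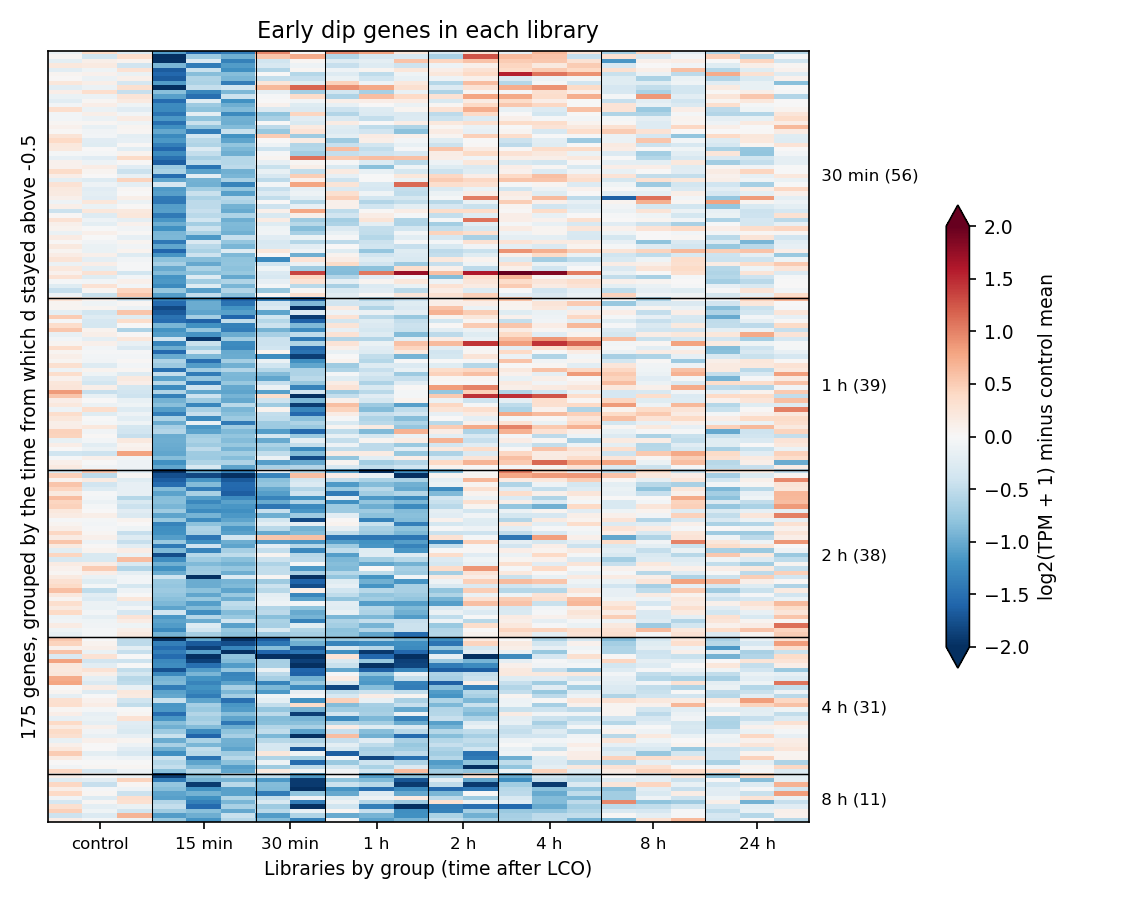
Each of the 175 early dip genes (rows) in each library (columns, by group), coloured by log2(TPM + 1) minus the control mean, cut off at -2 and 2. Rows are grouped by the time from which d stayed above -0.5: 30 min (56 genes), 1 h (39), 2 h (38), 4 h (31) and 8 h (11).

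The rule took genes with high control values, which moves their differences from the control towards lower at any other time. The counts against the control at 30 min, 1 h, 2 h and 4 h are therefore a description, and nothing is read from them against the shares of all genes printed beside them. At 30 min the median d was -0.62 and 157 of 175 genes were below 0; 10 were called lower (0.94% of all genes tested were) and none higher (0.839%), with 82 and 1 at an unadjusted p under 0.05 (11.1% and 9.66% of all genes). Both libraries lay below all controls for 100 genes, against 18.1% of all genes tested, and above them for 3, against 16%. The 10 calls became 51 without 30 min replicate 1, 0 without 30 min replicate 3 (44 genes at an unadjusted p under 0.05), and 4, 5 and 6 without control replicates 1, 2 and 3. At 1 h the median d was -0.41, 13 genes were called lower (1.27% of all genes) and none higher (1.61%), with 58 and 1 unadjusted (7.55% and 8% of all genes). All libraries of 1 h lay below all controls for 62 genes (10.2% of all genes) and above them for 2 (9.85%). Without control replicate 1 there were 6 calls, without control replicate 2 there were 8, and without 1 h replicate 2 or 3 there were 5. At 2 h the median d was -0.20, and 6 genes were called lower (2.21% of all genes) and none higher (1.98%), with 26 and 4 unadjusted (8.32% and 8.19% of all genes). Both libraries of 2 h lay below all controls for 43 genes (18.3% of all genes) and above them for 17 (19.1%). The 6 calls became 2 and 3 without control replicates 1 and 2, and 2 and 1 without 2 h replicates 1 and 2.

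At 4 h the median d of the early dip genes was 0.00, with quartiles at -0.24 and 0.19. Of the 175, 152 lay within 0.5 of the control, 12 above and 11 below. All libraries of 4 h lay above all controls for 22 genes, where 20.1% of all genes did, and below them for 15, where 14.9% did. Of the early dip genes 3 were called (9.56% of all genes tested were), 2 higher (1.14%, against 4.61% of all genes tested) and 1 lower (0.571%, against 4.95%), and 1 was called without 4 h replicate 2. With only the control and 4 h libraries in the fit 10 were called, and with library weights 20, 8 without both 15 min replicate 2 and 30 min replicate 3, and 7 with the number of genes at 0 as a covariate. The 705 genes with the same fall at 15 min had a median d of -0.54 at 4 h, and 27.5% of them were called lower. The rule split the sets by d at 8 h and 24 h, and d at 4 h uses the same controls. The difference between the sets at 4 h is therefore not independent of the split, and nothing is read from it.

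The 3 genes called at 4 h, named after their values were seen, took different courses. Potri.007G042600 stood at 9.92, 10.1 and 8.59 TPM in the controls, at 2.53, 4.84 and 4.81 TPM at 15 min and at 29.9, 21.0 and 18.5 TPM at 4 h, a rise over the control of 1.17 log2 (SE 0.25, adjusted p = 0.00604). It was back at 6.72, 8.75 and 6.31 TPM at 8 h. Potri.008G154700 held 15.7, 16.1 and 13.4 TPM in the controls, 5.50, 10.8 and 5.69 TPM at 15 min and 27.3, 42.6 and 35.0 TPM at 4 h (1.15 log2, SE 0.28, adjusted p = 0.0122, and 0.0727 without 4 h replicate 2). Both genes stood below all controls at 15 min, which the rule required, and above all controls at 4 h.

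Potri.001G264400 had its 4 h libraries below its controls, which the rule had required to lie above 15 min. The controls were close together, at 30.2, 28.6 and 29.3 TPM, and its 15 min libraries lay between 12.8 and 17.2 TPM. Its group means were 15.8 ± 1.51 TPM at 30 min (SD, n = 2), 16.5 ± 2.23 TPM at 1 h (n = 3), 17.9 ± 1.80 TPM at 2 h (n = 2) and 21.1 ± 0.854 TPM at 4 h (n = 3). All libraries of these times were below all controls, with log2 differences of -0.86, -0.81, -0.69 and -0.46, given as a description since the rule used these controls. Of 13 alternatives, 8 lost the 4 h call (adjusted p between 0.00364 and 0.151), among them leaving out any 1 library of the control or of 4 h (0.1 to 0.151). The difference between 4 h and 30 min did not pass the threshold (0.40 log2, SE 0.16, adjusted p = 0.122).

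The transcript table, made from the same reads, splits these levels by transcript. Of the 175 genes, 171 had at least 1 transcript with a mean of 1 TPM or more, 156 of them exactly 1. The most abundant transcript had d of -0.8 or lower at 15 min in 164 genes. Because most genes had only 1, this largely repeats the gene levels that the rule used. A transcript met the whole rule in 140 of the 175 genes. Of 29885 transcripts with a mean of 1 TPM or more, 242 met it, 141 of them from early dip genes. Among the 15 genes with at least 2 transcripts at that mean, 1 (Potri.001G264400) had all of them at -0.8 or lower. In 13 genes some were, in 1 none was, and 4 had a transcript that was 0.5 or more above control. These counts are for 15 min. At 8 h and 24 h a transcript could lie outside the late limits that its gene met. In Potri.002G074700, transcript 9 had d of -2.91 and -3.05 at these times, and transcript 8 had 2.35 and 2.68. How many of the 15 genes were alike in this was not counted. Potri.015G012700, with the widest spread between its transcripts, had transcript 3 at 37.1, 35.8 and 34.0 TPM in the controls and at 0.0178, 29.2 and 11.5 TPM at 15 min. Its transcript 6 was listed at 0, 5.98 and 0 TPM and at 9.70, 0 and 3.34 TPM in the same libraries. The 15 min libraries of this gene ranged widely, and reads common to its transcripts are divided by an estimate whose error is not in these values.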

How the data were processed

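RNA was sequenced from pooled poplar roots. Of 24 labelled samples, 22 had values here; the second replicate of 30 min and the third of 2 h were not analysed here. The values deposited by the authors are the natural log of (TPM + 1) and are marked as quantile-normalized in the name of the table. The base was taken from the values: with base e, libraries sum to 936253 to 936552 TPM. Kallisto and sleuth are named in the submitters' processing notes, without version or role; the deposited transcript identifiers end in v3.1, and a genome build is not named otherwise. Quantile normalization removes any change in total output, TPM keeps no depth, and a 0 need not mean that a transcript was absent.

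Values were back-transformed and taken as log2(TPM + 1), which understates fold changes of low genes. All 22 libraries and 25636 genes entered 1 limma 3.58.1 model (R 4.3.3) with a mean for each group and moderated variances that follow a trend with level; tests were two-sided, with 14 residual degrees of freedom. Benjamini-Hochberg adjustment ran over all genes tested, with calls at an adjusted p under 0.05. The procedure was checked on simulated data with independent noise, of the same spread in every library for a given gene. That check does not cover libraries that differ in spread. Plots used matplotlib 3.10.9 under Python 3.11.15. Replicates are pools of plants that the labels call biological.

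The genes, comparisons and lists were chosen with earlier results of these data known. The planned gene lists and promoter motifs need annotation or sequences that were not used here. Without names, the rule gave the 2 genes with the lowest d at 15 min (mean of at least 5 TPM) and the 2 with the highest difference between 4 h and 30 min; the other named genes were chosen after seeing their values. Alternatives were another pseudocount, no filter, only the compared groups, the block, library weights and leaving out single libraries.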

Additional observations from a re-analysis of the deposited data

Results flagged for a closer look

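For 35 early dip genes the difference from control was not the same at 30 min and at 4 h, by the limma test of 4 h against 30 min itself (adjusted p under 0.05 over all genes tested, all 35 higher at 4 h). Potri.008G115100 is among them, with a log2 difference from control of -1.05 at 30 min and of 0.82 at 4 h. Leaving out 30 min replicate 3 reduced the number to 5. No group has 4 or more libraries, so single libraries were not tested as outliers.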

How the results depend on the processing

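Leaving out 15 min replicate 2 with 30 min replicate 3, and genes at 0 as a covariate, were added after seeing the data. The values are numbers of early dip genes, and where they moved by over 1.5 times the cause was not tested unless fewer genes or libraries in the fit show it. The rule found 112 genes when the minimum mean was 5 TPM, 55 with d of -1 or lower at 15 min and 76 with a late limit of 0.3; a pseudocount of 0.1 TPM gave 260, 140 of them among the 175. Leaving out single libraries gave 147 to 420 genes. In the limma fits the same step gave 14 to 54 for any difference among 30 min to 4 h, 5 to 54 for 4 h against 30 min, 12 to 26 for 4 h against 1 h and 1 to 35 for 2 h against 30 min. Against control it gave 0 to 51 at 30 min, 5 to 17 at 1 h, 1 to 5 at 2 h and 1 to 3 at 4 h. With 1 library of 30 min or 2 h left, its spread is taken from the other groups. With only the compared groups the numbers in the same order were 13, 7, 23, 0 (29 at an unadjusted p under 0.05), 0 (74 unadjusted), 2, 4 and 10. Library weights gave 55, 8, 74, 0 (24 unadjusted), 1, 63, 14 and 20. Without both added libraries they were 35, 10, 43, 3, 0 (48 unadjusted), 20, 13 and 8, and with genes at 0 as a covariate 27, 23, 21, 13, 5, 9, 3 and 7. With no filter on low values, 19 were called for any difference, 16 for 4 h against 1 h and 5 for 30 min against control. In the labels, libraries with the same number are tied by that number only. Their deviations from group means correlated from -0.36 to 0.39 over 70 pairs, 23 of them over 0.1. The median was 0.05, against -0.03 for libraries with different numbers. Deviations within groups of 2 or 3 depend on each other, so these values cannot show whether the pools were paired. The replicate block gave 30, 32, 28, 11, 13, 13, 5 and 4, no count moved by over 1.5 times, but Potri.001G452500 from 1 h to 4 h (adjusted p = 0.0587) and Potri.001G264400 at 4 h against control (0.0518) lost their calls. In the 3 comparisons among 30 min, 1 h, 2 h and 4 h, 3 of 36 alternatives called an early dip gene lower, 1 gene each. The unknown depth limits all counts.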
